A study of Mus musculus with 6 samples.

Results

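Matrix metalloproteinases and their tissue inhibitors were examined in the whole retina of DBA/2J females, mice of an inbred strain in which pressure in the eye rises with age and glaucoma follows. The 10 genes were Timp1, Timp2, Timp3 and Timp4, the secreted or membrane-bound metalloproteinases Mmp2, Mmp3, Mmp9, Mmp14 and Mmp15, and the related protease Adamts1. Members were all probe sets (groups of short array probes that together read 1 transcript) whose only annotated symbol was one of these names, however dim. That gave 22 of 45037 probe sets, reading 9 genes. No probe set carried the symbol Mmp15 in the annotation used, so Mmp15 was not analysed here.

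Each of 6 Affymetrix arrays held 1 retina, from 3 mice aged 3 months with normal intraocular pressure and 3 mice aged 8 months with elevated pressure. Final intraocular pressure averaged 17.5 ± 1.99 mmHg in the younger group and 27.4 ± 2.67 mmHg in the older (SD, 3 eyes per group), so age and pressure cannot be told apart. All 3-month retinas were left eyes, while 8-month retina 1 was a left eye and 8-month retinas 2 and 3 were right eyes. Animal numbers in the labels show separate mice. Values are log2 expression, in which a difference of 1 is 2-fold. Rod markers were high on every array, with a summed log2 level between 15.31 and 15.48 over 8 measured genes. Values per retina are always given in the order of retinas 1, 2 and 3 of each age. Lens markers were very uneven: 8-month retina 1 stood at 13.84 and 3-month retina 3 at 14.75, against 7.18 to 9.69 in the other retinas (summed log2 level, 7 of 11 measured), and member differences that rest on those retinas are given with and without them. In whole tissue, fewer cells of a type and less RNA per cell cannot be told apart.

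Metalloproteinases are zinc enzymes that cut collagens, laminins and other proteins of the extracellular matrix. Most are made as inactive precursors, and the TIMPs block the active enzymes by filling the cleft at the catalytic zinc. The balance of protease and inhibitor shapes basement membranes, vessels and the outflow tissue of the eye, and in the retina it is known for its part in matrix turnover after injury. Timp3 stays bound to the matrix, including the membrane beneath the retinal pigment epithelium, and its mutation in people causes a macular dystrophy.

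The promoters of 4 members are shown because the genes fell into readable and barely readable ones on these arrays: Timp2 and Timp3 were readable, Timp1 and Mmp3 were not. Each is the 250 bases before the annotated start, from RefSeq on GRCm38.p6, which is the C57BL/6J reference and not DBA/2J. Timp1 lies at chrX:20869916-20870165 (plus strand), Timp2 at chr11:118355412-118355661 (minus strand), Timp3 at chr10:86300162-86300411 (plus strand) and Mmp3 at chr9:7445572-7445821 (plus strand). Capitals mark exact matches, on either strand, to the AP-1 motif TGANTCA, the GC box GGGCGG or the TATA motif TATAAA.
Timp1: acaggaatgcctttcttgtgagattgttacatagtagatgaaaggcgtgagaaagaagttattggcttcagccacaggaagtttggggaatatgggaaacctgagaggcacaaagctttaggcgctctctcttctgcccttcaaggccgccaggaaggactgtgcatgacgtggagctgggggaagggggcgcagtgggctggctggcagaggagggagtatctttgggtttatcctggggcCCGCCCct
Timp2: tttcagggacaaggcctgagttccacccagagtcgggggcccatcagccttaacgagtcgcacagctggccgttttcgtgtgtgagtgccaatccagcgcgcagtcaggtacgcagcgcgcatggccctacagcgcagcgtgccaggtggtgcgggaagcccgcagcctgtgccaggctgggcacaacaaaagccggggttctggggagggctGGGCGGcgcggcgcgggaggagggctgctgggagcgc
Timp3: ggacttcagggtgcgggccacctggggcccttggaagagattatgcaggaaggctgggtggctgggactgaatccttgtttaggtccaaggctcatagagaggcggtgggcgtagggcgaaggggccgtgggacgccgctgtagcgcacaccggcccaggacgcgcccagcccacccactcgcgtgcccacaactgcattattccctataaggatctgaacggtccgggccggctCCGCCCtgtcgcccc
Mmp3: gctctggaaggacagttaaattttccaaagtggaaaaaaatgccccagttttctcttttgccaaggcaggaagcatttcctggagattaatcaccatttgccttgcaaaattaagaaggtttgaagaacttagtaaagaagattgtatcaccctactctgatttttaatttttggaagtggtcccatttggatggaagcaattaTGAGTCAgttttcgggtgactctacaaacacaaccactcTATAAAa

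The Timp1, Timp2 and Timp3 stretches each held 1 GC box, and Mmp3 held 1 AP-1 match, TGAGTCA, 46 bases before its start, and 1 TATA match. In the full windows, which reach 50 bases past the start, 35.7% of 32851 promoters held a GC box, 7.81% an AP-1 match and 13.6% a TATA match, and no matches overlapped in the windows of the members. Of the 8 member promoters in the table, Timp2 and Timp3 had the most CpG for their base composition among those with array values, at an observed-to-expected CpG ratio of 0.718 and 0.714, which lay above 72.4% and 72.0% of all promoters. The ratio was 0.384 for Timp1, 0.104 for Timp4, 0.0845 for Mmp3, 0.425 for Mmp14 and 0.577 for Adamts1, which was readable. No promoter was available for Mmp2 or for Mmp9, which was also readable. Over genes with 1 promoter and a probe set, 80.1% of 6770 with a ratio of at least 0.6 had a readable probe set, against 34.2% of 5022 below it. These are descriptions of the windows and of which genes the arrays read.

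A probe set was called readable where at least 3 of its 6 values reached 4, and 9 member probe sets of 4 genes did: 4 of Timp2, 3 of Timp3, 1 of Mmp9 and 1 of Adamts1. No readable member passed the test between the ages. Of these 9, 0 passed at a Benjamini-Hochberg adjusted p of 0.05 in limma, a linear model fitted to all 20973 readable probe sets, of which 0.00477% passed. Before adjustment, at a limma p of 0.05, the count was likewise 0 of 9, beside 14.9% of all readable probe sets (4.63% higher and 10.3% lower at 8 months). In 0 of 9 did the ages not overlap, against 21.8% of all readable probe sets. Of the 9, 6 were nominally higher and 3 lower at 8 months, with a median difference of 0.04, beside -0.04 over all readable probe sets. The 95% limma intervals of all 9 lay within 2-fold in either direction, the widest being -0.88 to 0.58.

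**Figure D1:**
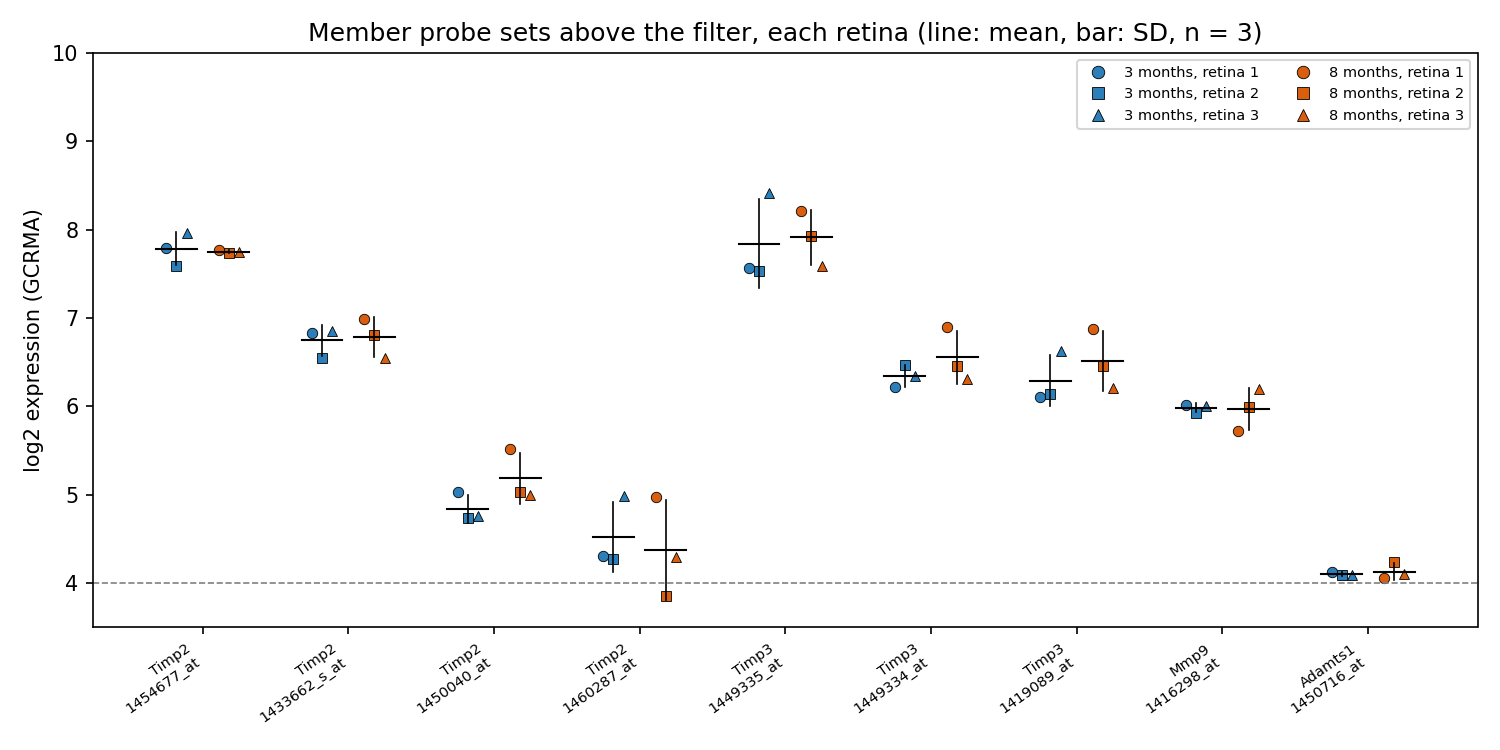
Log2 expression of the 9 readable member probe sets in each retina, 3-month retinas in blue and 8-month retinas in orange, with the mean as a line and the SD as a bar (n = 3). The ages overlap in every probe set, and 8-month retina 1 or 3-month retina 3 is the highest retina in 7 of them, all of Timp2 or Timp3.

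Timp2 inhibits many metalloproteinases and, together with Mmp14 at the cell surface, also helps to activate the precursor of Mmp2. Its probe set 1454677_at read 7.79, 7.59 and 7.97 at 3 months and 7.77, 7.74 and 7.75 at 8 months. The older retinas lay within 0.04 of each other and inside the range of the younger ones. The log2 difference was -0.03 ± 0.11 (SE; limma adjusted p = 0.910), with a 95% interval of -0.29 to 0.22.

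The probe set 1433662_s_at, whose suffix marks probes that can match several transcripts, read 6.83, 6.55 and 6.86 at 3 months and 6.99, 6.81 and 6.55 at 8 months. The lowest retina of each age was level with the other, and the difference was 0.04 ± 0.14 (log2, SE; limma adjusted p = 0.914). Those 2 Timp2 probe sets thus gave differences close to 0 with opposite signs.

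The widest member difference came from the dimmer Timp2 probe set 1450040_at, with values of 5.03, 4.74 and 4.76 at 3 months and 5.52, 5.03 and 5.00 at 8 months. The older retinas were at the top, but 3-month retina 1 fell among them, and 8-month retina 1 stood apart as the highest. The log2 difference was 0.34 ± 0.16 (SE), 1.27-fold, and did not pass (limma adjusted p = 0.371). It was 0.17 without 8-month retina 1 and 0.13 without both lens-rich retinas.

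The fourth readable Timp2 probe set, 1460287_at, read 4.31, 4.27 and 4.98 at 3 months and 4.97, 3.85 and 4.30 at 8 months. Its highest values were those of 3-month retina 3 and 8-month retina 1, the lens-rich retinas, and its difference was -0.15 ± 0.31 (log2, SE; limma adjusted p = 0.840). The sign turned when some single retinas were left out: it was 0.08 without 3-month retina 3 and 0.12 without 8-month retina 2. Without both lens-rich retinas it was -0.21. The remaining Timp2 probe sets, 1437081_at and 1420924_at, stayed between 2.54 and 2.92 in all retinas, near the bottom of the scale.

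Timp3, the matrix-bound inhibitor that also acts on ADAM and ADAMTS proteases, varied more between retinas than between ages. Its probe set 1449335_at read 7.56, 7.54 and 8.42 at 3 months and 8.21, 7.93 and 7.59 at 8 months. The top value belonged to a 3-month retina, and the lowest 8-month retina was level with the lowest 3-month ones. The difference was 0.07 ± 0.27 (log2, SE; limma adjusted p = 0.914). It was 0.36 without 3-month retina 3 and -0.08 without 8-month retina 1.

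The probe set 1449334_at read 6.21, 6.47 and 6.34 at 3 months and 6.89, 6.45 and 6.31 at 8 months. Here 8-month retina 1 alone lay above the younger range, and the difference was 0.21 ± 0.16 (log2, SE; limma adjusted p = 0.543). Without that retina it was 0.04.

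The probe set 1419089_at read 6.10, 6.14 and 6.63 at 3 months and 6.88, 6.45 and 6.20 at 8 months. All older retinas exceeded 3-month retinas 1 and 2, while 3-month retina 3 exceeded 8-month retinas 2 and 3. The difference was 0.22 ± 0.21 (log2, SE; limma adjusted p = 0.627), and it was 0.04 without 8-month retina 1. The fourth Timp3 probe set, 1419088_at, lay between 2.51 and 2.94 and was not readable.

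Without both lens-rich retinas, the Timp3 differences were 0.21 for 1449335_at, 0.04 for 1449334_at and 0.20 for 1419089_at (log2). The ages then did not overlap in 1449335_at and 1419089_at, with the older retinas higher, where 39.9% of all readable probe sets did not overlap in those 4 arrays. With eye side in the model the same differences were 0.37, 0.55 and 0.59. Those values set 8-month retina 1 alone, a lens-rich retina and the only left eye of its age, against the 3-month retinas. None of the Timp3 probe sets passed under any alternative.

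**Figure D2:**
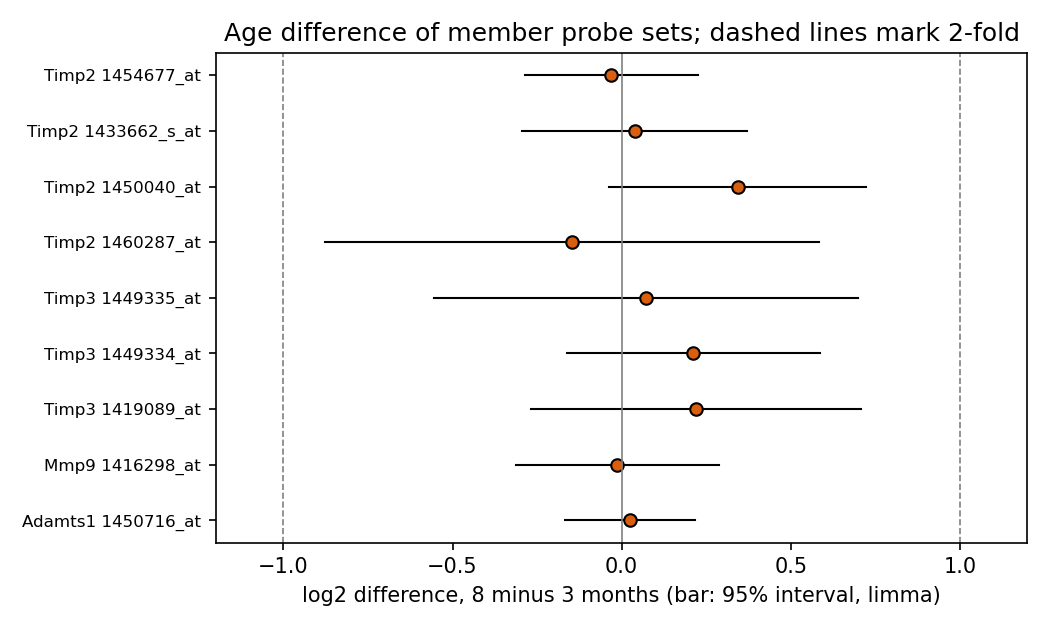
Log2 difference between 8 and 3 months for each readable member probe set (points), with 95% limma intervals (bars) and dashed lines at 2-fold. Every interval spans 0 and none reaches a 2-fold change.

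Timp3 had the widest range over the 6 retinas of the members when each gene is read by its brightest probe set, at 0.88 on the log2 scale. The genes with the most similar profile were sought among 3786 genes with a range of at least 0.5, by the root mean square difference of profiles centred on their own means over the 6 retinas. The nearest was Kcnj13, a potassium channel gene of the retinal pigment epithelium, at 0.0873, followed by the elongation factor gene Ell2 at 0.113 and the noncoding RNA Airn at 0.115. Kcnj13 read 4.16, 4.22 and 5.01 in the 3-month retinas and 4.60, 4.49 and 4.16 in the 8-month retinas, so 3-month retina 3 was highest in both genes. A further Airn probe set had another order, with 8-month retina 1 and 3-month retina 2 at the top. The similarity is a description over 6 arrays.

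Markers of the pigment epithelium, a layer that a dissected retina can carry along, were measured for 6 of 10 listed genes, while Lrat, Rdh5, Tyr and Pmel lay below the filter. Their summed log2 level was 7.74, 9.53 and 10.76 at 3 months and 9.92, 9.99 and 8.22 at 8 months. The ranges of the ages overlapped, and 3-month retina 3 and 3-month retina 1 were the extremes. Rpe65, the retinoid isomerase of that layer, read from 2.80 in 3-month retina 1 to 5.43 in 8-month retina 2. Of the 9 readable member probe sets, 7 were highest in 8-month retina 1 or 3-month retina 3, the lens-rich retinas, while 34.2% of all readable probe sets were. Those 7 all read Timp2 or Timp3, so they are repeated readings of the same genes and not separate members. Mmp9 was highest in 8-month retina 3 and Adamts1 in 8-month retina 2. The part of pigment epithelium or lens material in the member values was not tested.

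**Figure D3:**
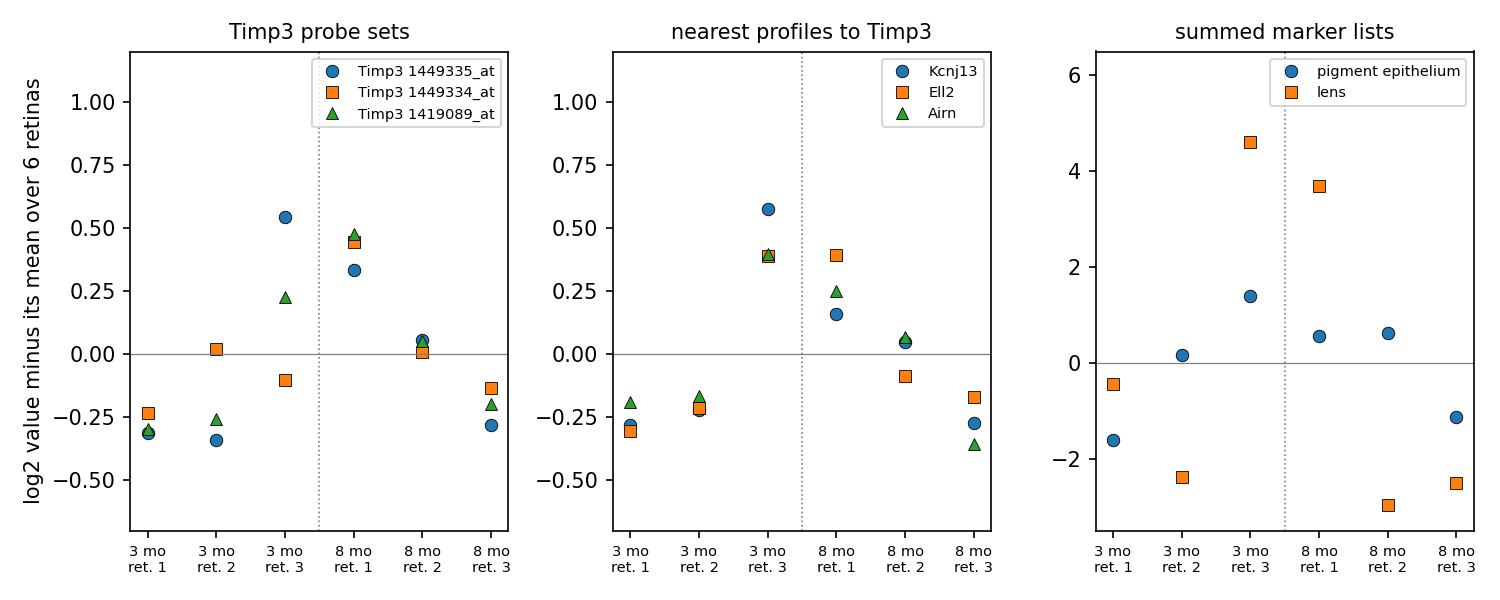
Log2 values minus their mean over 6 retinas for the 3 readable Timp3 probe sets (left), for the genes with the nearest profiles to 1449335_at (middle), and for summed pigment epithelium and lens markers (right, wider axis). 3-month retina 3 is highest for Timp3 1449335_at, Kcnj13 and both marker sums, whereas Timp3 1449334_at and 1419089_at are highest in 8-month retina 1.

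Among the proteases, Mmp9, the gelatinase that degrades type IV collagen, was readable by 1 of its 2 probe sets. The probe set 1416298_at read 6.02, 5.92 and 6.01 at 3 months and 5.72, 6.00 and 6.19 at 8 months. The younger retinas lay close together, at 5.98 ± 0.05, and the older ones were spread on both sides of them, at 5.97 ± 0.24 (SD, n = 3). The difference was -0.01 ± 0.13 (log2, SE; limma adjusted p = 0.971), with a 95% interval of -0.31 to 0.29, and its sign turned after quantile normalization and cyclic loess.

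The dim Mmp9 probe set 1448291_at read 2.64, 2.32 and 2.37 at 3 months and 2.31, 2.32 and 2.29 at 8 months. It was the 1 member probe set below the filter whose ages did not overlap, with the older retinas lower, where 10.2% of all 45037 probe sets had no overlap in that direction. The ages were almost level, and the unfiltered limma fit gave an adjusted p of 0.694. Neutrophils store Mmp9, and of 7 neutrophil markers only S100a9 was readable, at 4.37 to 4.83, while S100a8 lay at or below 2.99.

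The 3 genes with the nearest profile to Mmp9, by the same measure, were the zinc finger gene Zfp804a at 0.0521, the alpha-2-macroglobulin-like protease inhibitor gene A2ml1 at 0.0593 and the dopamine receptor gene Drd2 at 0.0604. Each was lowest in 8-month retina 1 and highest in 8-month retina 3. A second readable Zfp804a probe set did not share that order, since 3-month retina 3 was its lowest retina.

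Adamts1, a secreted protease that cuts versican and aggrecan and is blocked by Timp3, lay just above the filter. It read 4.12, 4.09 and 4.09 at 3 months and 4.05, 4.23 and 4.10 at 8 months. The older values lay on both sides of the younger, and the difference was 0.02 ± 0.08 (log2, SE; limma adjusted p = 0.903). GCRMA presses weak signals toward a floor, so a difference at this level can be understated.

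The other members were read only near the bottom of the scale. The 13 member probe sets below the filter had values between 2.29 and 3.48. In a limma fit with no filter, 0 of the 13 passed, with 0 at an unadjusted p under 0.05 and adjusted p values from 0.691 to 0.986. Values at this level bound the signal rather than measure it, and they do not show that the transcripts are absent.

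Timp1, the inhibitor induced in many tissues by injury and cytokines, has 1 probe set, 1460227_at. It read 3.41, 3.19 and 3.17 at 3 months and 3.41, 3.30 and 3.22 at 8 months. Retina 1 was the highest at each age, and the means were 3.26 ± 0.13 and 3.31 ± 0.09 (SD, n = 3). In the same retinas Gfap, the filament gene of reactive glia, read 4.25, 4.72 and 4.27 at 3 months and 4.87, 5.83 and 5.75 at 8 months. All older retinas lay above all younger ones, by 1.07 ± 0.27 (log2, SE), without passing (limma adjusted p = 0.223). Those values are from its brightest probe set, and the median difference over its readable probe sets was 0.74. Ages did not overlap in 23.0% of all readable genes.

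Timp4, an inhibitor described mainly in heart and brain, read between 3.06 and 3.36 with 1423405_at and between 2.39 and 2.43 with 1450974_at. Its highest reading was that of 8-month retina 2, and the ages overlapped in both probe sets.

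Mmp2, the gelatinase activated by Mmp14 and Timp2, read 3.03, 2.92 and 2.93 at 3 months and 3.38, 2.93 and 3.08 at 8 months with 1416136_at. Its other probe set, 1439364_a_at, lay between 2.78 and 3.12. In the first of these the highest retina was 8-month retina 1, while the others of both ages overlapped. The difference of 1416136_at was 0.17, and 0.03 without both lens-rich retinas (log2).

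Mmp3, the stromelysin whose promoter with the AP-1 match is shown above, read 3.32, 3.34 and 3.15 at 3 months and 3.33, 3.48 and 3.33 at 8 months. The difference was 0.11 with overlapping ages (log2; unfiltered limma adjusted p = 0.691). Of the AP-1 genes, Jun averaged 8.96 ± 0.056 at 3 months and 8.94 ± 0.020 at 8 months (SD, n = 3). Fos ran from 7.10 to 8.01 over the 6 retinas. Their differences were -0.02 and 0.12 (log2; limma adjusted p = 0.914 and 0.822).

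Mmp14, the membrane-type enzyme that activates Mmp2, had 3 probe sets, and all stayed between 2.34 and 3.24. The readings of 1448383_at were 2.41, 2.65 and 2.55 at 3 months and 3.00, 2.50 and 2.50 at 8 months, and those of 1416572_at were 2.41, 2.34 and 2.41 and 2.74, 2.41 and 2.42. In both, 8-month retina 1 stood alone above the other 5 retinas. Their differences were 0.13 and 0.14, and -0.03 and 0.04 without both lens-rich retinas (log2). The remaining one, 1440920_at, lay between 3.12 and 3.24 with no such retina.

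**Figure D4:**
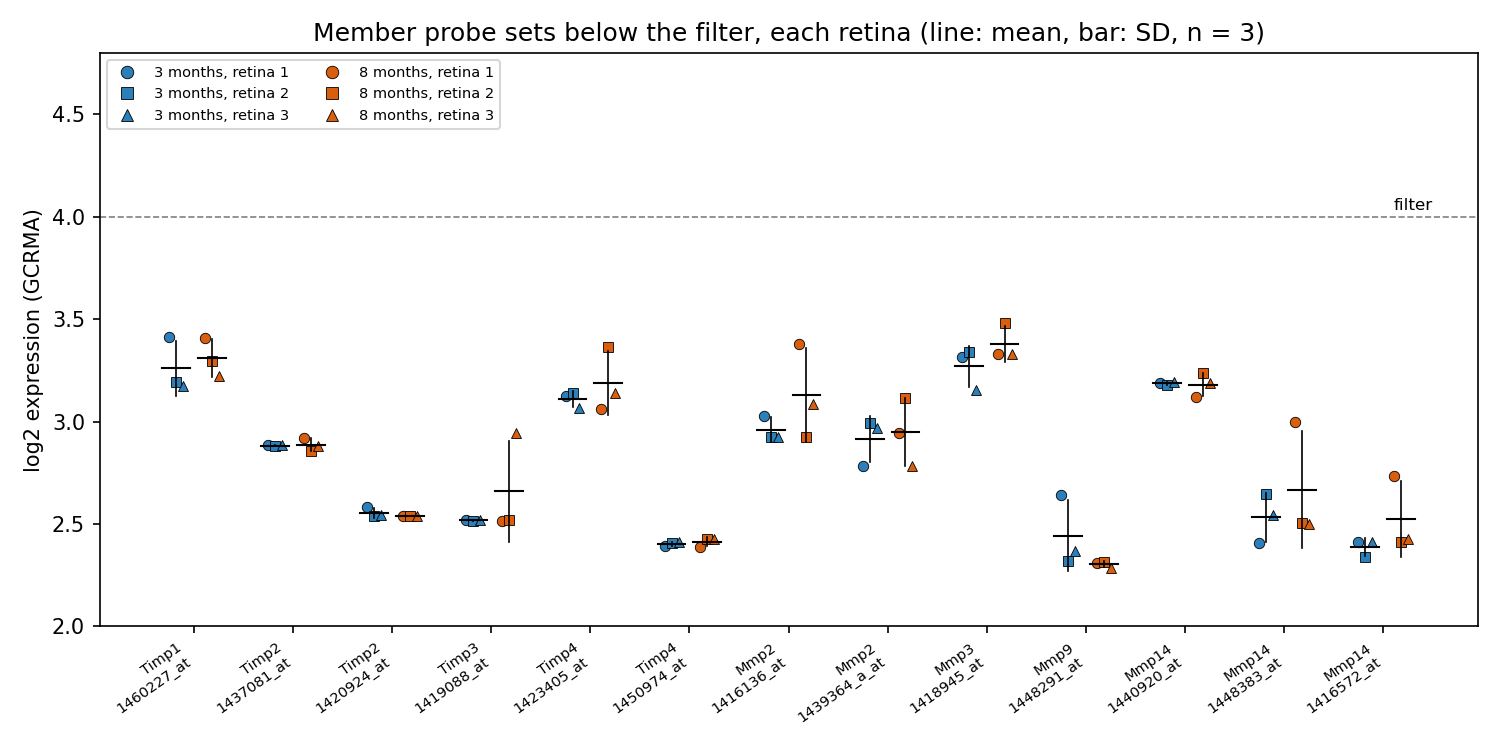
Log2 expression of the 13 member probe sets below the filter (dashed line at 4) in each retina, with the mean as a line and the SD as a bar (n = 3). All values lie between 2.29 and 3.48. The highest retina is 8-month retina 1 in Timp2 1437081_at, in Mmp2 1416136_at and in Mmp14 1448383_at and 1416572_at.

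Around these members, 100 further genes of the protease system were taken in 8 lists, of which 51 genes were readable by their brightest probe set. Of the 51, 0 passed in limma over all probe sets, 22 were nominally higher and 29 lower at 8 months, and their median difference was -0.01, beside -0.06 over all 11219 readable genes. Before adjustment, 3 of them, or 5.88%, had a limma p under 0.05 by their brightest probe set. Counted per probe set and not per gene, the share was 14.9% over all readable probe sets. Further probe sets of Vcan and Tgfb2 also had a limma p under 0.05 and are not among the 3. The differences ran from -0.55 to 0.39 on the log2 scale, and 0 reached 2-fold. The ages did not overlap in 4 of the 51, Adam17, Furin, Adam23 and Spock3, beside 23.0% of all 11219 readable genes.

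Of 15 other metalloproteinases, 3 were readable: the matrix protease gene Mmp19 and the membrane-type genes Mmp24 and Mmp17, with differences of 0.15, -0.15 and 0.03 (log2). Mmp24 read 7.36, 7.30 and 7.27 at 3 months and 6.96, 7.17 and 7.37 at 8 months. The older retinas overlapped the younger through 8-month retina 3, and 0 of the 3 passed.

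Of 10 ADAM genes, 6 were readable, 4 nominally higher and 2 lower, with a median difference of 0.05. Adam17, the enzyme that sheds tumour necrosis factor and is inhibited by Timp3, read 7.90, 7.57 and 7.50 at 3 months and 7.24, 7.32 and 7.33 at 8 months. All older retinas lay below all younger ones, by a mean of -0.36 ± 0.12 (log2, SE; limma adjusted p = 0.275), which did not pass. A further Adam17 probe set, 1421859_at, differed by -0.01. Adam22, Adam9 and Adam23 had differences of -0.27, 0.24 and 0.08 (log2).

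Of 16 other ADAMTS genes, 6 were readable, 2 nominally higher and 4 lower, with a median of -0.02. The aggrecan-cutting Adamts5 differed by -0.09, Adamts15 by 0.09, Adamts9 by -0.10 and Adamts10 by -0.03 (log2), and 0 passed.

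Of 12 regulators of these enzymes, 9 were readable, 3 nominally higher and 6 lower, with a median of -0.03. Spock3, which encodes a matrix proteoglycan of the testican group, read 7.23, 7.27 and 7.18 at 3 months and 7.49, 7.51 and 7.59 at 8 months. The older retinas lay above the younger in every case, by 0.31 ± 0.08 (log2, SE), yet the gene did not pass (limma adjusted p = 0.223). Its relative Spock2, the hyaluronan receptor gene Cd44 and the protease gene Furin, which activates membrane-type metalloproteinases, differed by -0.20, 0.29 and -0.15 (log2). A further Cd44 probe set differed by -0.02.

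Of 9 genes of the plasminogen system, which can activate metalloproteinase precursors, only the inhibitor-family genes Serpinf1 and Serpini1 were readable, with differences of -0.22 and -0.10 (log2). The activator genes Plat and Plau lay between 2.26 and 3.27 in all their probe sets.

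Of 17 genes of the matrix that the enzymes cut, 13 were readable, 6 nominally higher and 7 lower, with a median of -0.04. The laminin genes Lamb2 and Lamb1 differed by 0.21 and -0.12, the matrix glycoprotein gene Tnc by -0.30 and the collagen gene Col18a1 by 0.21 (log2), and 0 passed. Of 8 genes of lecticans and the proteins that link them to hyaluronan, 5 were readable, 1 nominally higher and 4 lower, with a median of -0.17. The link protein gene Hapln1 differed by -0.55 ± 0.20 (log2, SE) with overlapping ages, and Hapln4, Ncan and Vcan by -0.28, -0.17 and 0.39, none passing. A further Vcan probe set, 1427257_at, differed by 0.41 (log2; limma adjusted p = 0.285). Its ages did not overlap, as in 21.8% of all readable probe sets. Of 13 genes of AP-1 and of cytokines that induce metalloproteinases, 7 were readable, with a median of 0.01, Fosl2 at 0.34, Stat3 at 0.11 and Tgfb2 at -0.06 (log2). A further Tgfb2 probe set, 1438303_at, differed by 0.26 without overlap of the ages (log2; limma adjusted p = 0.324). The other Tgfb2 probe sets, 1423250_a_at and 1450922_a_at, differed by 0.02 and -0.01.

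**Figure D5:**
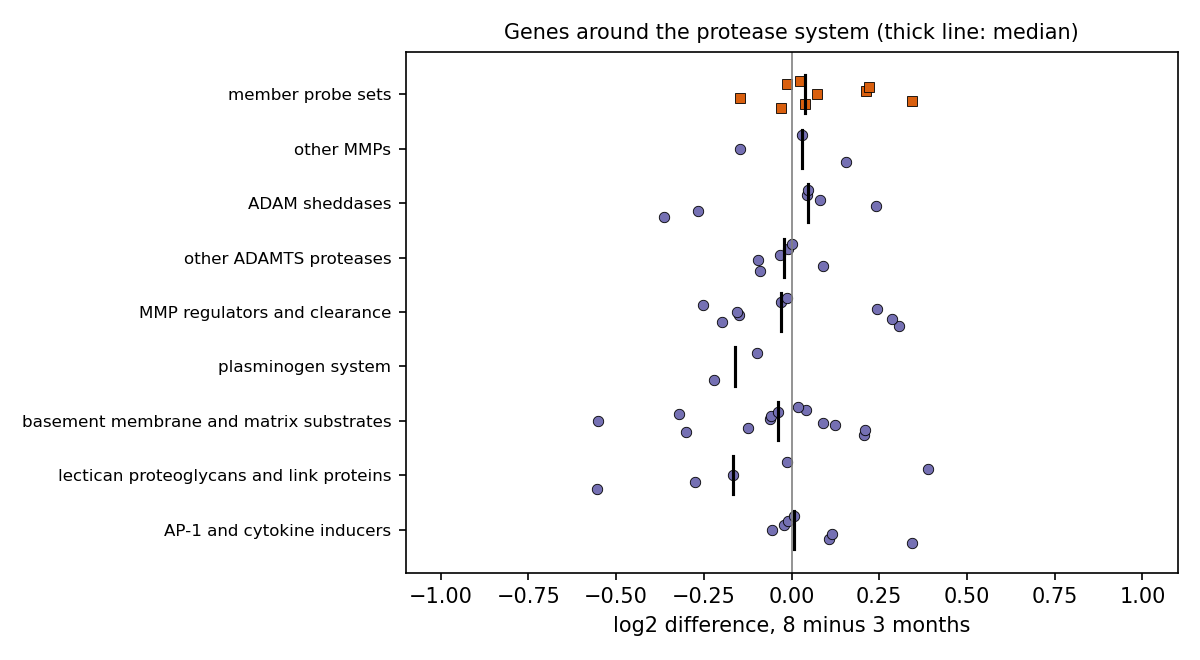
Log2 difference between 8 and 3 months for each readable gene of the 8 lists (circles) and each readable member probe set (squares), with the median of each row as a thick line. All points lie between -0.55 and 0.39, and the member median is 0.04.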

How the data were processed

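Whole-retina RNA was amplified and hybridised, 1 retina per array, per the labels' protocols. The deposited values are log2 expression per probe set. The submitters' processing notes name GCRMA 1.1.0 and R 1.9.0; the options are not given in the sources used here. GCRMA models background from probe sequence and compresses weak signals. Of 45101 rows, 64 Affymetrix controls were dropped. The filter asked that at least 3 of the 6 arrays reach 4, and 20973 probe sets (46.6%) did. The platform annotation gave 1 symbol for 34945 probe sets, several for 932 and none for 9160.

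Ages were compared with limma 3.58.1 in R 4.3.3 (lmFit and eBayes, no covariate, two-sided, Benjamini-Hochberg over all kept probe sets, threshold 0.05). The fit was tested on simulated data with planted log2 differences of 0.5, 1 and 2. It recovered 18.4%, 69.7% and 98.0% of them at the threshold, so differences of 0.5 were mostly missed. With 3 retinas per age the smallest exact permutation p is 0.1, so no such test was used. The number of arrays limits the precision. In the lists each gene was read by its brightest kept probe set, and up to 4 genes of smallest p were named per protease, matrix, vessel, glial and microglial list; of the other marker lists single genes were chosen for what they mark, and Jun for the AP-1 motif. Members and lists were chosen with earlier results of these data known. Alternatives were other filters, scalings and variance models, eye side, a replicate block, the less specific probe sets left out, and arrays left out. Promoter windows came from a RefSeq table on GRCm38.p6.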

Additional observations from a re-analysis of the deposited data

How the results depend on the processing

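Under 16 alternatives, 0 member probe sets passed. The count over all readable probe sets was 1 as reported, 2 with the filter at 6, with quantile scaling and with cyclic loess, and 0 with no filter, with eye side as a covariate, with the replicate block, without both lens-rich retinas, and without any single retina (0 to 0). The number of member probe sets with non-overlapping ages was 0 as reported, 1 with no filter, with quantile scaling and with cyclic loess, 2 without both lens-rich retinas, and 0 to 2 with a single retina left out. Over all probe sets in those settings the share without overlap was 16.1% with no filter, 20.4% with quantile scaling, 20.7% with cyclic loess, 39.9% without both lens-rich retinas, and 30.1% to 39.8% where a single retina was left out and members did not overlap. After either scaling that probe set was Timp2 1450040_at, higher at 8 months, and with no filter it was Mmp9 1448291_at. Of 140 member differences under the alternatives, 120 kept their sign and 20 turned. After quantile normalization Timp2 1454677_at was 0.024 and Mmp9 1416298_at 0.053, and after cyclic loess 0.036 and 0.049. With eye side as a covariate Timp2 1460287_at was 0.45 and Adamts1 -0.049, while Mmp9 1416298_at was -0.26 and Timp2 1433662_s_at 0.25 with the sign as reported. Without both lens-rich retinas Timp2 1454677_at was 0.053, Timp2 1433662_s_at -0.010 and Mmp9 0.12. With a single retina left out the ranges were -0.13 to 0.062 for Timp2 1454677_at, -0.065 to 0.15 for 1433662_s_at, -0.45 to 0.12 for 1460287_at, -0.079 to 0.36 for Timp3 1449335_at, -0.12 to 0.11 for Mmp9 1416298_at and -0.028 to 0.061 for Adamts1. Timp2 1450040_at, Timp3 1449334_at and Timp3 1419089_at stayed above 0 in all alternatives, at 0.13 to 0.68, 0.04 to 0.55 and 0.04 to 0.59. The upper ends were those with eye side as a covariate. In that model the age difference sets 8-month retina 1 alone against the 3-month retinas. That lens-rich retina was the only left eye of its age, and all 3-month retinas were left eyes. The cause of the other shifts was not tested. The labels give separate animal numbers and no pairing by replicate number. Deviations of same-numbered retinas correlated at -0.141, 0.0638 and -0.283, which with so few retinas cannot show whether samples were paired. The replicate block called 0 probe sets in all. Reading each list gene by the median over its kept probe sets moved the median of a list by at most 0.077 (log2), and 0 of 19 lists by over 1 SD. Probe sets dropped by the filter at 6 or as less specific have no value there. The member readings below 4 are limited by signal over background.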

Other observations

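Some matrix genes of the lists, chosen after their values were seen, were uneven across single retinas in the way lens markers were. The ADAMTS protease gene Adamts4 read 5.23, 5.29 and 6.61 at 3 months and 6.56, 5.22 and 5.30 at 8 months, with an age difference of -0.01 (log2; limma adjusted p = 0.994). The basement membrane collagen gene Col4a1 read 5.14, 5.67 and 7.81 at 3 months and 7.09, 5.30 and 5.28 at 8 months, and its partner Col4a2 5.66, 5.53 and 7.85 and 6.94, 5.00 and 5.44. Sparc, a collagen-binding matrix protein gene, read 11.06, 10.84 and 11.80 at 3 months and 11.42, 10.94 and 10.58 at 8 months. In all of these the highest retinas were 3-month retina 3 and 8-month retina 1. The differences of Col4a1, Col4a2 and Sparc were -0.32, -0.55 and -0.25. Without both of those retinas they were -0.12, -0.37 and -0.19, and that of Adamts4 was 0.01 (log2). The part of lens material in them was not tested.

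Vessel markers, which include cells that make and meet these proteases, were readable for 6 of 10 genes, 1 nominally higher and 5 lower at 8 months, with a median difference of -0.34 (log2) and 0 passing. In 2 of the 6, the transporter gene Abcb1a and the tight junction gene Cldn5, all older retinas lay below all younger ones, with differences of -0.66 and -0.44 (log2; limma adjusted p = 0.181 and 0.269). Ages did not overlap, in either direction, in 23.0% of all 11219 readable genes. The receptor gene Tek and the pericyte gene Rgs5 differed by -0.57 and -0.24 with overlapping ages. Stromal markers of sclera and choroid were readable for 5 of 10, with a median of 0.02, led by the collagen genes Col1a1 and Col1a2 at 0.12 and 0.04 (log2).

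Markers of reactive glia and of microglia had the highest median differences of the 19 lists. Reactive glia markers were readable for 9 of 10 genes, all 9 nominally higher at 8 months, with a median of 0.64 (log2), 2 without overlap and 0 passing. Over all 11219 readable genes the ages did not overlap in 23.0%. Gfap, Osmr, Socs3 and Cp differed by 1.07, 0.44, 0.64 and 0.76. The median over all readable probe sets of the gene was lower for Gfap, at 0.74, and for Socs3, at 0.56. Microglia and macrophage markers were readable for 5 of 11, all 5 nominally higher, with a median of 0.65, 4 without overlap and 0 passing. C1qb, Ctss, Lyz2 and Tyrobp differed by 1.05, 0.65, 0.73 and 0.35 (log2). For C1qb the median over its readable probe sets was 0.77. Beside these, 0 of 9 readable member probe sets had ages that did not overlap, and the part of glial or microglial RNA in the member values was not tested.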
